A study of Homo sapiens with 20 samples.

Results

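Ribosome biogenesis is the assembly of ribosomal RNA and ribosomal proteins into subunits, most of it in the nucleolus. RNA polymerase I makes the large precursor of ribosomal RNA, nucleolar proteins fold, modify and cut it, and RNA polymerase III makes the small 5S ribosomal RNA and the transfer RNAs. MYC, a transcription factor that binds DNA as a dimer with MAX, is known to raise the transcription of many of these genes. Leucine is an amino acid that activates the mTORC1 kinase, a known regulator of ribosome production.

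The genes described here are MYC and 9 ribosome biogenesis factors that were taken as a list: NCL, NPM1, FBL, DKC1, NOP56, NOLC1, BOP1, RRS1 and POLR3K. A probe set, the group of short probes that reads a transcript on the array, was taken when its annotation gave 1 of these symbols and no other. That rule found 11 of the 22215 probe sets on the arrays, for 7 of the 10 listed genes. NPM1 and NOLC1 had 3 probe sets each, and MYC, NCL, FBL, RRS1 and POLR3K had 1 each. DKC1, NOP56 and BOP1 were read by 3, 2 and 2 probe sets that were annotated to several symbols, and were not followed. A filter on the mean level kept 13329 probe sets, the 11 members among them.

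The 20 arrays measured RNA of THLE-3, 1 established epithelial line from adult human liver that carries the SV40 large T antigen in all groups. Cells in 0.1 mM leucine (low) or 2.0 mM leucine (high) were sampled at 0, 30, 60, 120 and 480 min, and each of the 10 groups held 1 array of a first and 1 of a second experiment. The labels name neither the medium used before 0 min nor a separate culture for each experiment. The p-values below therefore cover the spread between these arrays alone, which may be technical.

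The array means ran from 761.8 to 862.6 intensity units, with a median of 787.2 in the first and 848.3 in the second experiment. Of the 9 hepatocyte markers on the array 6 passed the filter and 0 lay above the 90th percentile of all probe sets, with the lowest, the albumin gene ALB, at percentile 9.92 of the mean level and the highest, CYP3A4, at 90. ALB, APOB at 17.6 and TF at 22 did not pass, and TTR, SERPINA1, FGB, FGA and CPS1 lay between 45.3 and 56.6. The epithelial keratin gene KRT18 lay at percentile 99.1, the mesenchymal filament gene VIM at 99.2, and the epithelial adhesion gene CDH1 at 7.31. Of 6 epithelial and 6 mesenchymal markers 4 each lay above the 90th percentile, with the lowest mesenchymal one, COL1A2, at 52. Of 4 blood and endothelial markers 2 passed the filter, the highest being HBB at 64.8, so passing it does not by itself mark a cell type.

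The promoters of POLR3K and NPM1 are shown because these genes supplied the leucine and time differences that passed a test. Sequences and positions are from RefSeq on GRCh38.p14. POLR3K lies at chr16:46407-53608 on the minus strand and NPM1 at chr5:171387116-171410900 on the plus strand. NCL lies at chr2:231453531-231464484, FBL at chr19:39834458-39846379 and NOLC1 at chr10:102152389-102163870. The stretches run 5′ to 3′ up to the base before the start of the gene, 219 bases at chr16:53609-53827 (minus strand) and 250 bases at chr5:171386866-171387115 (plus strand). Capitals mark, on either strand, CCAAT (the CCAAT box, which reads ATTGG on the opposite strand) and GGGCGG (the GC box bound by SP1 family factors, CCGCCC on the opposite strand).
POLR3K: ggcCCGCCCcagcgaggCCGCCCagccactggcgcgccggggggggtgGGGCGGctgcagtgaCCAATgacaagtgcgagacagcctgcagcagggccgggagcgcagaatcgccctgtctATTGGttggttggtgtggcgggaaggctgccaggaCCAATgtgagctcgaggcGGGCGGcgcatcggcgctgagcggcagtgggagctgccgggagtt
NPM1: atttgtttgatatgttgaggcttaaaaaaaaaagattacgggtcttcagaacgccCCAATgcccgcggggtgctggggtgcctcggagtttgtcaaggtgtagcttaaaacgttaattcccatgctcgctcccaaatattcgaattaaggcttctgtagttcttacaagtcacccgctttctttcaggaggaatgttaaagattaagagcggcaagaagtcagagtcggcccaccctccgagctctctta

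The POLR3K stretch ends where the neighbouring gene SNRNP25 begins on the other strand, at position 53828 of chromosome 16. POLR3K had 3 CCAAT boxes, whose first bases in the printed stretch lie 156, 98 and 63 bases before its start, and 4 GC boxes. Among 35116 RefSeq promoters of 300 bases, 3.26% held at least 3 CCAAT boxes and 15.8% at least 3 GC boxes. NPM1 had 1 CCAAT box 195 bases before this start, a motif that 34.6% of the promoters held. A second NPM1 start in the same table had the letters TATATAA, searched on both strands, 25 bases upstream, which 2.57% of the promoters held in any position. CACGTG, the E-box that MYC and MAX bind, which reads the same on both strands, was in neither gene's windows. It was in 7.26% of all promoters and, among the members with an entry in the table, in that of FBL, at base 7 after the start. A match describes letters in a window and shows no binding.

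limma was fitted without and with a term for the experiment. It moderates each probe set's variance with that of all others. The unblocked fit had 1 mean per group and 10 residual degrees of freedom, and the blocked fit added the experiment. Values are on the log2 scale of the normalised intensity, ± the standard error of the blocked fit unless the third fit is named, with n = 2 arrays per group. Percentages are computed from these log2 values, which include a constant added to every intensity. They are not percent changes of the intensities as deposited. A call is an adjusted p under 0.05 over the 13329 probe sets.

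After 480 min, POLR3K, a small subunit of RNA polymerase III that acts in RNA cleavage and transcription termination, was higher in high than in low leucine, while the nucleolar factors and MYC had values at or below those in low leucine. The POLR3K probe set and the NPM1 probe set 221691_x_at passed the test in the blocked fit. The blocked fit called 2 of the 11 members where it called 4.09% of all probe sets. The unblocked fit called 0 of the 11, where it called 0.270% of all. An unadjusted p under 0.05 was found for 4 members in the unblocked and 6 in the blocked fit. Of all 13329 probe sets 886 and 2209 had one. Of the 11 probe sets 10 were lower in high leucine and 1 was higher, with a median difference of -0.16. Over all probe sets 52.8% were lower and the median was -0.01. NPM1 and NOLC1 supply 6 of these probe sets, which share their transcripts.

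POLR3K intensity as deposited in the first experiment was 726, 731, 725, 783 and 748 in low leucine at 0, 30, 60, 120 and 480 min. The same times in high leucine gave 751, 759, 823, 834 and 992. In the second experiment low leucine gave 737, 746, 798, 798 and 822, and high leucine gave 814, 830, 851, 792 and 967. The 2 arrays of high leucine at 480 min were the brightest of the 20 for this gene, and did not overlap the 2 of low leucine at that time. The difference at 480 min was 0.27 ± 0.05, or 20.2%, with a 95% interval from 0.15 to 0.38. By limma its adjusted p was 0.012 in the blocked and 0.11 in the unblocked fit. It was 0.33 in the first and 0.21 in the second experiment. The call was lost without the low leucine array of the first experiment at 480 min (0.23, limma adjusted p = 0.11). It was also lost without the high leucine array of the first (0.24, adjusted p = 0.077) or of the second experiment (0.29, adjusted p = 0.06) at that time.

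The POLR3K difference was present in the same direction at the other times, at smaller values. It was 0.12 at 0 min (blocked limma adjusted p = 0.28), 0.09 at 30 min, 0.09 at 60 min and 0.05 at 120 min. Normalised POLR3K was higher in high leucine in 10 of 10 pairs of arrays matched by time and experiment, by 0.01 to 0.33. As deposited, the pair of the second experiment at 120 min was reversed (792 in high, 798 in low leucine). Of all probe sets 15, or 0.113%, were higher in all 10 pairs. Averaged over the 5 times the difference was 0.13 ± 0.02, with a limma adjusted p of 0.057 in the blocked and 0.7 in the unblocked fit. In that average the fits called 0 members, beside 0.173% of all probe sets in the blocked and 0.00750% in the unblocked fit. The members at an unadjusted p under 0.05 were 3 in either fit, beside 948 of all 13329 probe sets in the blocked and 309 in the unblocked fit.

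**Figure D1:**
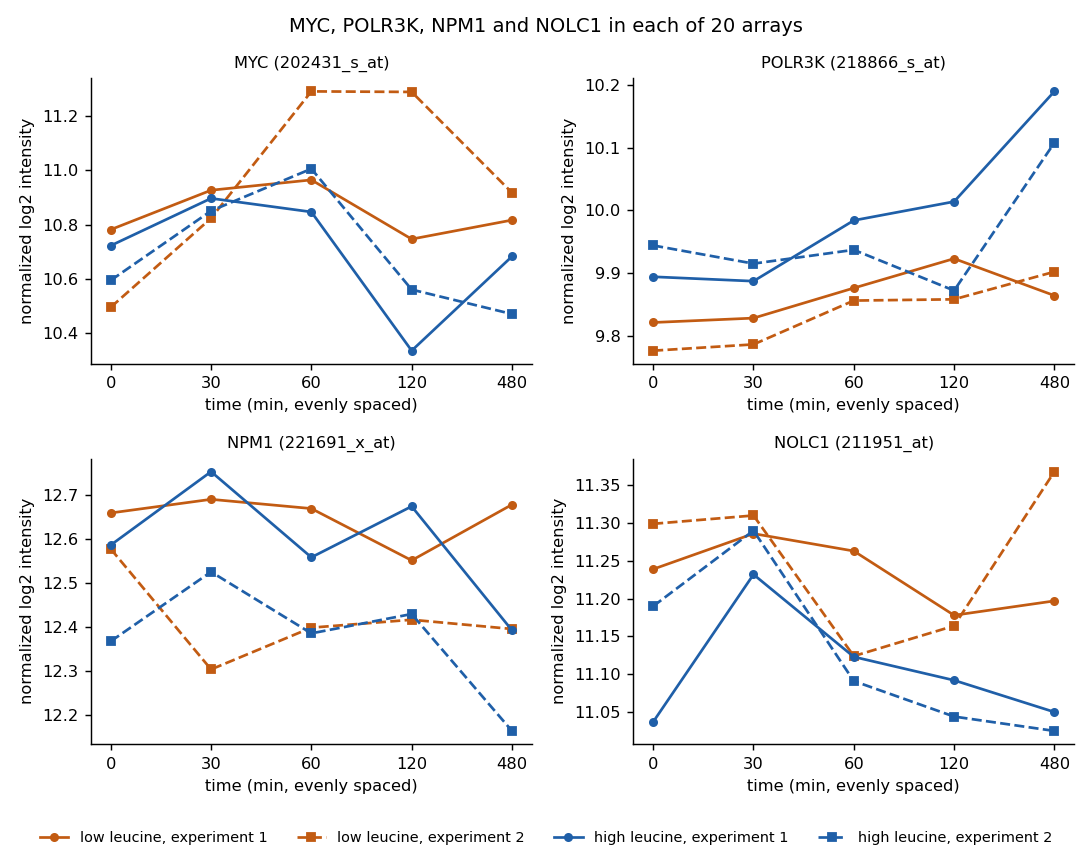
Normalised log2 intensity (vertical axis) of 1 probe set each of MYC, POLR3K, NPM1 and NOLC1 against time in min, evenly spaced (horizontal axis), with 1 line per leucine level and experiment and 1 point per array. The POLR3K lines of high leucine end above those of low leucine in both experiments, and the MYC line of low leucine in the second experiment stands apart from the others at 60 and 120 min.

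Over time, POLR3K rose in high leucine from 0 to 480 min by 0.23 ± 0.05, or 17.3% (limma adjusted p = 0.011 blocked, 0.07 unblocked). In low leucine the value was 0.08 ± 0.05 (adjusted p = 0.48). The difference between these changes was 0.15 ± 0.08 (adjusted p = 0.3, interval -0.02 to 0.31), so the courses at the 2 leucine levels were not shown to differ. By this test the blocked fit called 0 of 11 members and 3.82% of all probe sets. An unadjusted p under 0.05 was found for 1 member and for 2695 of all 13329 probe sets. Averaged over both levels the value at 480 min was 0.16 ± 0.04 above 0 min (adjusted p = 0.017 blocked, 0.1 unblocked). In that average 2 of 11 members were called by the blocked fit, against 11.0% of all probe sets. In high leucine alone 2 of 11 were called against 15.2%, a share near the background. In low leucine 0 of 11 were called against 0.233%, with 1 member and 2066 of all 13329 probe sets at an unadjusted p under 0.05. The unblocked fit called 0 members in each, beside 1.21%, 1.72% and 0 of all.

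The POLR3K rise in high leucine was lost as a call without the high leucine array of the first experiment at 0 min (0.18, limma adjusted p = 0.086) or at 480 min (0.2, adjusted p = 0.074). The average over both levels lost its call without either of those arrays (0.13 and 0.14). It also lost it without the low leucine array of the second experiment at 0 min (0.15) or 480 min (0.14).

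NPM1, nucleophosmin, is an abundant nucleolar chaperone that takes part in ribosome assembly and export. Its probe set 221691_x_at had intensities of 6170, 6200, 6056, 5688 and 6225 in low leucine in the first experiment and 6020, 4964, 5531, 5715 and 5305 in the second, in order of time. In high leucine they were 5638, 6596, 5640, 6139 and 5192 in the first and 4948, 5975, 5364, 5479 and 4645 in the second. At 480 min both high leucine arrays were below both low leucine arrays, and the high leucine value of the second experiment was the lowest of the 20. On the normalised scale the separation was slight, 12.392 (high, first experiment) against 12.395 (low, second experiment). How many of all probe sets separate in this way was not counted, here or for POLR3K and MYC. The difference at 480 min was -0.26 ± 0.06, or -16.4%, with a 95% interval from -0.39 to -0.13. Its limma adjusted p was 0.023 in the blocked and 0.97 in the unblocked fit, and the experiments gave -0.29 and -0.23. Leaving out any of the 4 arrays at 480 min ended the call, with values from -0.29 to -0.23 and adjusted p up to 0.15. It also ended on the values as deposited (-0.22, adjusted p = 0.079), with median centring (-0.2, adjusted p = 0.11) and with array weights (-0.26, adjusted p = 0.061).

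The other NPM1 probe sets, 200063_s_at and 221923_s_at, gave -0.15 ± 0.05 (limma adjusted p = 0.12) and -0.16 ± 0.06 (adjusted p = 0.15) at 480 min in the blocked fit. All 3 were lower in high leucine in each experiment. Their average, a setting chosen after the data were seen, was -0.19 (adjusted p = 0.012 in the blocked fit). The suffix _x_at marks probe sets whose probes may also bind other sequences, and RefSeq lists 50 NPM1 pseudogenes, so the NPM1 values are uncertain as readings of the gene alone. RefSeq lists 2 or fewer pseudogenes for each of the other followed genes.

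At earlier times the 221691_x_at difference changed sign. It was -0.14 at 0 min (blocked limma adjusted p = 0.25), 0.14 at 30 min, -0.06 at 60 min and 0.07 at 120 min, none called. In high leucine this probe set was lower at 480 than at 0 min by -0.2 ± 0.06 (adjusted p = 0.036 blocked, 0.67 unblocked). In low leucine the value was -0.08 ± 0.06 (blocked adjusted p = 0.56). The difference between these changes was -0.12 ± 0.08 (blocked adjusted p = 0.46, interval -0.3 to 0.06), so the fall was not shown to be particular to high leucine. Averaged over both levels the value was -0.14 ± 0.04 (adjusted p = 0.045 blocked, 0.72 unblocked). The call in high leucine was lost without any of the 4 high leucine arrays at 0 and 480 min (value -0.2, adjusted p up to 0.14). That in the average was lost in 17 of 20 fits that left out 1 array. On the values as deposited the change in high leucine was -0.1 (adjusted p = 0.31) and with arrays centred on their medians -0.09 (adjusted p = 0.37).

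**Figure D2:**
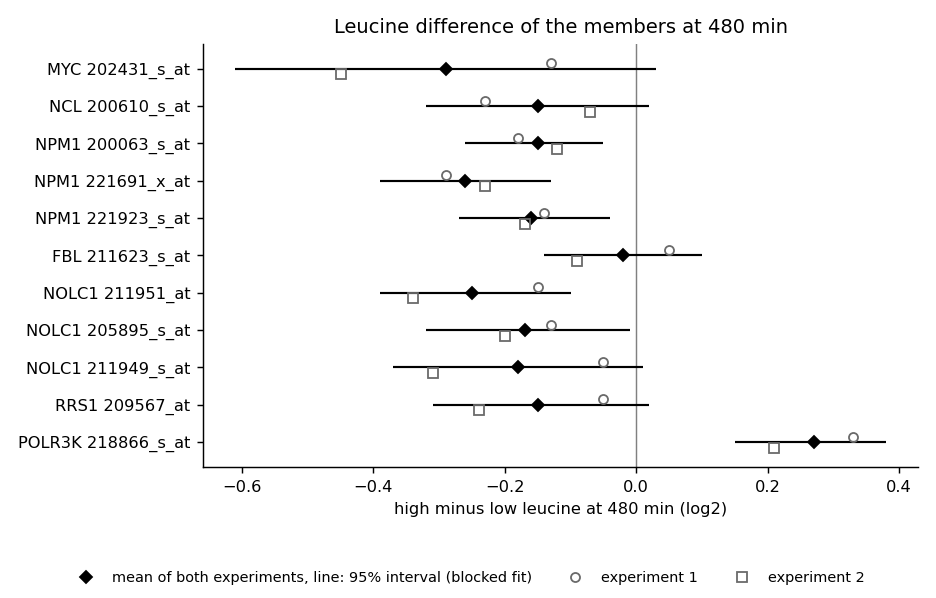
High minus low leucine at 480 min on the log2 scale (horizontal axis) for the 11 probe sets (vertical axis), with the estimate, its 95% interval from the blocked fit and the value in each experiment. POLR3K is at 0.27 to the right of 0, and the other 10 probe sets lie between -0.29 and -0.02.

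NOLC1 is a nucleolar phosphoprotein that binds small nucleolar ribonucleoproteins. Its probe set 211951_at had intensities of 2181, 2280, 2175, 2111 and 2143 in low leucine in the first experiment and 2397, 2370, 2198, 2283 and 2535 in the second. In high leucine they were 1813, 2162, 2022, 1956 and 1978 in the first and 2076, 2456, 2137, 1969 and 1998 in the second. The normalised value was lower in high leucine in 10 of 10 matched pairs, by 0.02 to 0.34. As deposited, the pair of the second experiment at 30 min was reversed (2456 in high, 2370 in low leucine). Of all probe sets 22, or 0.165%, were lower in all 10. The difference was -0.25 ± 0.07 at 480 min (limma adjusted p = 0.06 blocked, 0.28 unblocked) and -0.13 ± 0.03 averaged over the times (adjusted p = 0.17 blocked). Neither passed the test in these fits. At 0 min the difference was already -0.16 ± 0.07 (blocked limma adjusted p = 0.26). Its change from 0 to 480 min was -0.09 ± 0.1 (adjusted p = 0.64), so a later leucine difference was not shown. The difference at 480 min (-0.25) did pass in the blocked fit with a filter at the 60th percentile (adjusted p = 0.049), without the 0 min arrays (0.047) and without either low leucine array of 60 min (0.049). It did not in the other 18 fits that left out 1 array, where adjusted p reached 0.4, or under the other 10 settings.

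The other NOLC1 probe sets, 205895_s_at and 211949_s_at, gave -0.17 ± 0.07 and -0.18 ± 0.09 at 480 min (blocked limma adjusted p = 0.26 and 0.32). Each was lower in high leucine in 7 of the 10 pairs, a count whose share over all probe sets was not computed. Their intensities ran from 1080 to 1447 and from 541 to 802.

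NCL, nucleolin, binds ribosomal RNA and takes part in its transcription and processing. Its intensities ran from 2751 to 3519 with a median of 3184, and the difference at 480 min was -0.15 ± 0.08 (blocked limma adjusted p = 0.37). RRS1, a factor needed for assembly of the large subunit, ran from 1198 to 1527 with a median of 1378. Its difference was -0.15 ± 0.08 (adjusted p = 0.38, interval -0.31 to 0.02). FBL, fibrillarin, is the methyltransferase of the C/D small nucleolar ribonucleoproteins. Its intensities ran from 3099 to 3620, and in normalised log2 its standard deviation over the 20 arrays, 0.044, was the lowest of the 11 probe sets. Its difference at 480 min was -0.02 ± 0.06, with an interval from -0.14 to 0.1, and its sign turned on the values as deposited (0.02) and with median centring (0.04). In those scalings the count of lower probe sets is thus 1 fewer than the 10 given above.

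MYC varied most, with a standard deviation of 0.24 in normalised log2 over the 20 arrays. In the first experiment its intensities in low leucine were 1555, 1735, 1745, 1524 and 1611 in order of time, and in high leucine 1436, 1693, 1651, 1088 and 1477. In the second experiment low leucine gave 1296, 1672, 2486, 2513 and 1816, and high leucine gave 1334, 1758, 1994, 1366 and 1294. The 3 brightest arrays were of the second experiment, low leucine at 120 and 60 min and high leucine at 60 min. The dimmest was high leucine at 120 min in the first experiment.

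At 120 min MYC was at -0.57 ± 0.15 in high against low leucine, or -32.6%, with an interval from -0.89 to -0.25. The experiments gave -0.41 and -0.73, and both high leucine arrays were below both low leucine arrays. The unadjusted p was 0.0016 in the blocked and 0.0054 in the unblocked fit, and the limma adjusted p was 0.91 and 1, so the difference did not pass the test over all probe sets. At 120 min 0 of 11 members were called in either fit, beside 0.0300% of all probe sets in the blocked and 0.00750% in the unblocked fit. Members at an unadjusted p under 0.05 numbered 2 and 1, beside 601 and 137 of all 13329 probe sets. Without the low leucine array of the second experiment at 120 min the MYC value was -0.3, and without that of the first it was -0.84. The other 10 probe sets lay between -0.1 and 0.11 at that time.

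At the other times the MYC difference was 0.02 at 0 min, 0 at 30 min, -0.2 at 60 min and -0.29 ± 0.15 at 480 min (blocked limma adjusted p = 0.35). It was lower in high leucine in 8 of 10 matched pairs. How many of all probe sets reach that count was not computed, and FBL and RRS1 were lower in 7 of 10. Averaged over the times the MYC difference was -0.21 ± 0.07 (adjusted p = 0.43 blocked). At 30 min and at 60 min 0 of 11 members and 0 of all probe sets were called by either fit. In the blocked fit 593 and 419 of all probe sets, and 1 and 0 members, had an unadjusted p under 0.05 at these times. At 0 min the blocked fit called 0 members and 0.578% of all. An unadjusted p under 0.05 was found for 3 members and for 2266 of all 13329 probe sets.

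**Figure D3:**
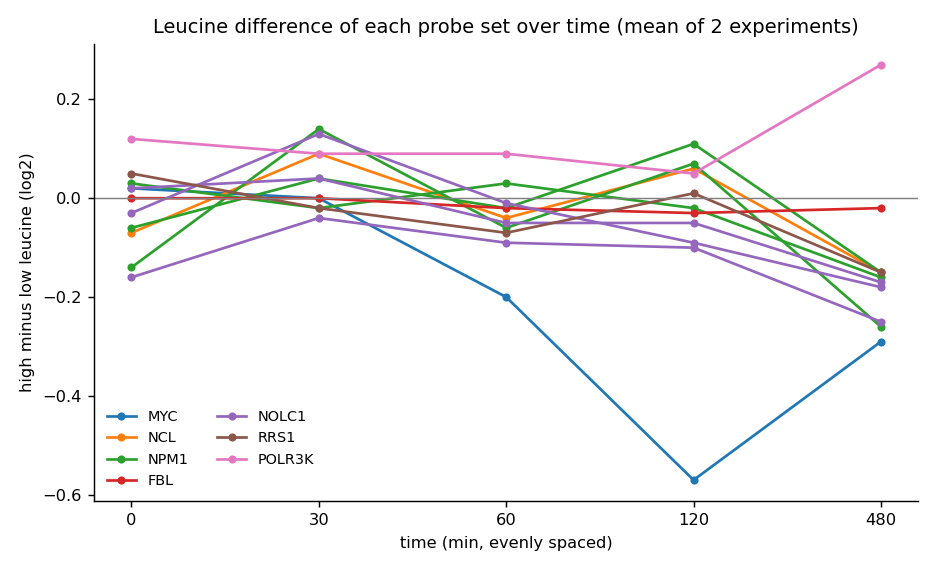
High minus low leucine on the log2 scale (vertical axis) at each time in min, evenly spaced (horizontal axis), for the 11 probe sets, coloured by gene. MYC is lowest at 120 min, at -0.57, and POLR3K is above 0 at all 5 times.

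Averaged over both leucine levels, MYC was 0.23 ± 0.11 above its value of 0 min at 30 min and 0.38 ± 0.11 above it at 60 min, and then 0.08 at 120 min and 0.07 at 480 min. The value at 60 min had a limma adjusted p of 0.06 in the blocked and 0.44 in the unblocked fit, and the fits called 0 of 11 members at that time, beside 2.54% and 0.00750% of all probe sets. At 30 min they called 0 members and 0.00750% of all, and at 120 min 0 members and 0.893% of all in the blocked fit. An unadjusted p under 0.05 was found for 1, 1 and 0 members at 30, 60 and 120 min in the blocked fit. Of all 13329 probe sets 1787, 3181 and 2595 had one. The MYC value at 60 min was 0.15 in the first and 0.6 in the second experiment. With median centring it was 0.46 (adjusted p = 0.036), and without the low leucine array of the first experiment at 0 min 0.47 (adjusted p = 0.041). Without either low leucine array of 120 min it stayed at 0.38 (adjusted p = 0.043). The other 17 fits that left out 1 array, with values down to 0.28, and the other 10 settings, with values down to 0.3, made no call, at adjusted p up to 0.2 and 0.44.

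The third fit compared changes over time between the experiments. It has no term for a leucine difference that varies with time, so such a difference, as for MYC at 120 min, is left in its residual spread. In this fit the change of MYC from 0 to 60 min was larger in the second than in the first experiment by 0.45 ± 0.21 (limma adjusted p = 0.44). That from 0 to 120 min was larger by 0.59 ± 0.21 (limma adjusted p = 0.39). Without the high leucine array of the second experiment at 120 min the latter was 0.88 (adjusted p = 0.038). Of the 11 probe sets 0 passed this limma test at 30, 60, 120 or 480 min, beside 0.0450%, 0.720%, 0.653% and 0.593% of all. An unadjusted p under 0.05 was found for 0, 1, 1 and 0 of them, and for 669, 1480, 1064 and 1649 of all 13329 probe sets.

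Probe sets of the same gene differed between experiments. Over all arrays the second experiment was below the first for NPM1 221691_x_at, by -0.23 ± 0.03 (limma adjusted p = 2.9e-06). It was below for NOLC1 205895_s_at, by -0.19 ± 0.03 (adjusted p = 1.4e-04), and for NOLC1 211949_s_at, by -0.25 ± 0.04 (adjusted p = 6.4e-05). The other NPM1 probe sets gave 0.02 and -0.01 and the third of NOLC1, 211951_at, gave 0.02, with adjusted p from 0.55 to 0.61. These 3 of 11 calls stand beside 62.0% of all probe sets called, a larger share. The sign of these 3 was kept on the values as deposited and with median centring. On the values as deposited 8 of the 11 were called, and with 1 probe set per gene, the brightest, 0 were.

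**Figure D4:**
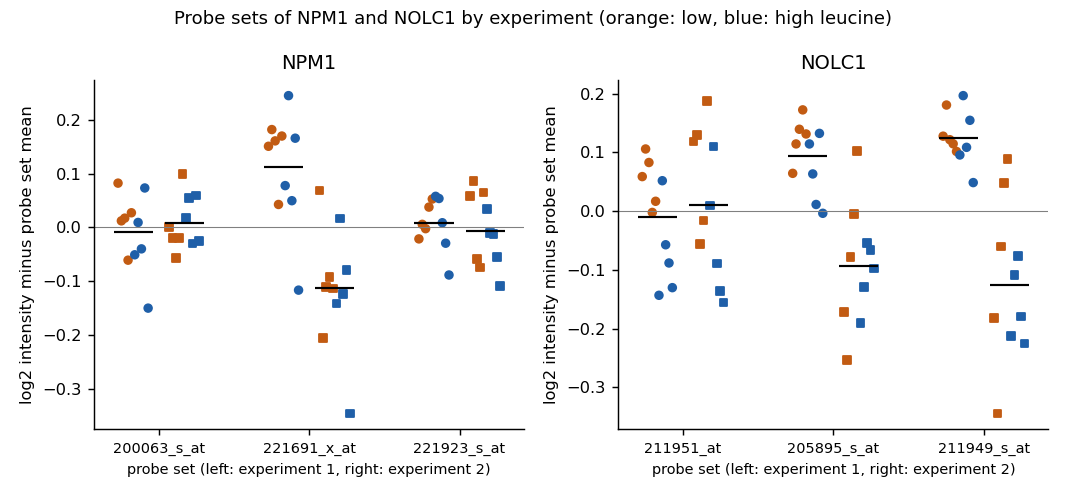
Normalised log2 intensity of the 3 NPM1 and the 3 NOLC1 probe sets minus each probe set's mean (vertical axis) in the 20 arrays, by probe set and experiment (horizontal axis), orange for low and blue for high leucine, with a bar at each experiment's mean. The means of NPM1 221691_x_at and NOLC1 205895_s_at and 211949_s_at are lower in the second experiment, while the means of the other 3 probe sets lie close together. Single arrays of the experiments overlap for every probe set shown.

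Across the 20 arrays, after the mean of each experiment was subtracted, NOLC1 205895_s_at and 211949_s_at correlated at a Pearson r of 0.784, and with 211951_at at 0.0456 and 0.214. The NPM1 probe sets correlated with each other at 0.603, 0.407 and 0.263. POLR3K correlated below 0 with each of the other 10 probe sets, from -0.712 with NPM1 221691_x_at, -0.609 with NOLC1 211951_at and -0.595 with NPM1 221923_s_at to -0.0743 with NOLC1 205895_s_at and -0.0738 with FBL. MYC correlated with them from -0.342 with POLR3K to 0.547 with NOLC1 211949_s_at. These are descriptions over arrays that share their leucine levels, times and normalisation.

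The other genes of the pathway were described by lists of textbook members at 480 min, high against low leucine, 1 probe set per gene. The unblocked fit called 0 genes in each of the 6 lists, so the calls here are those of the blocked fit. Of 37 tested factors of early ribosomal RNA processing 1 was higher and 1 lower, with a median of -0.02 against -0.01 over all probe sets. The counts in all 6 lists stand beside the 4.09% of all probe sets that this fit called, and the 2 of 37 here are near that share. DDX21, a helicase that acts in ribosomal RNA transcription and processing, was lower by -0.37 ± 0.08 (limma adjusted p = 0.022). NOP10, a subunit of the H/ACA ribonucleoproteins, was higher by 0.24 ± 0.06 (adjusted p = 0.039). Not called were UTP14A at -0.27 (limma adjusted p = 0.055) and RRP12 at -0.17 (adjusted p = 0.1).

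Of 33 factors of subunit assembly and export 0 were higher and 2 lower, with a median of -0.09. WDR74 fell by 0.25 ± 0.06 (limma adjusted p = 0.027) and RSL24D1, a large subunit assembly factor, by 0.28 ± 0.07 (adjusted p = 0.032). EFL1, a GTPase that takes part in the release of eIF6 from the large subunit, gave -0.23 (adjusted p = 0.096), and GTPBP4, a nucleolar GTPase, gave -0.23 (adjusted p = 0.11).

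Of 18 genes of RNA polymerase III and its factors, POLR3K not among them, 0 were called in either direction. Their median was 0.01 and their range -0.14 to 0.18. The GTF3C3 subunit of TFIIIC gave 0.18 ± 0.05 (limma adjusted p = 0.084) and the polymerase subunit POLR3C gave -0.14 ± 0.07 (adjusted p = 0.31). The POLR3K value of 0.27 thus lay above the range of these 18 genes. Of 12 genes of RNA polymerase I and its factors 0 were called, with a median of -0.06, and its subunit POLR1D, shared with polymerase III, gave -0.15 (adjusted p = 0.19).

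**Figure D5:**
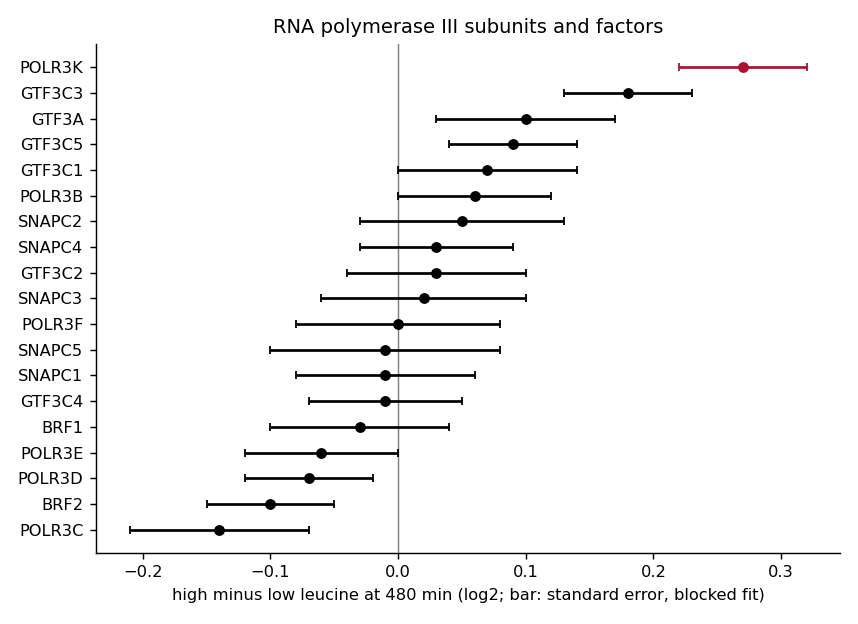
High minus low leucine at 480 min on the log2 scale (horizontal axis) for POLR3K and the 18 tested genes of RNA polymerase III and its factors, with standard errors of the blocked fit as bars. The POLR3K estimate of 0.27 lies outside the range of the estimates of the RNA polymerase III list, -0.14 to 0.18.

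Of 17 tested genes of the MYC network 1 was higher and 0 lower, with a median of -0.01. The gene was SKP2, an F-box protein of the ubiquitin ligase that acts on MYC, at 0.43 ± 0.08 (limma adjusted p = 0.0067), read by a probe set of the _x_at kind. The MYC partner-related genes MLX at 0.17 and MXI1 at -0.16 were not called. Of 14 other textbook MYC targets 0 were called, with a median of -0.06. This list also holds genes that MYC represses, so its median does not measure MYC activity. CDK4 gave -0.18 ± 0.05 (adjusted p = 0.055), the lactate dehydrogenase gene LDHA gave 0.17 (adjusted p = 0.08), and GADD45A, a stress gene that MYC represses, gave -0.5 ± 0.15 (adjusted p = 0.088).

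From 0 to 480 min, averaged over leucine, 3 of 37 early processing factors were higher and 0 lower in the blocked fit. They were NOP10 by 0.19, MPHOSPH10 by 0.19 and EMG1 by 0.22 (limma adjusted p = 0.01, 0.019 and 0.026). Among 33 subunit assembly factors BRIX1 was higher by 0.17 (adjusted p = 0.02) and NIP7 by 0.19 (adjusted p = 0.03), and EFL1 was lower by -0.23 (adjusted p = 0.0092). In the RNA polymerase III list 2 of 18 genes, both subunits of the snRNA-activating complex, were lower, SNAPC5 by -0.21 (adjusted p = 0.036) and SNAPC4 by -0.15 (adjusted p = 0.041). Among 12 genes of the RNA polymerase I list CAVIN1, which is also the transcript release factor PTRF, was higher by 0.35 (adjusted p = 0.0028). PRDX3, a mitochondrial peroxidase among the 14 other MYC targets, was higher by 0.13 (adjusted p = 0.028), and 0 of 17 genes of the MYC network were called. None of these passed in the unblocked fit, which called 1.21% of all probe sets. The blocked fit called 11.0%, and the share it called in each list was near or below that.

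The genes whose pattern was most like that of MYC over the 20 arrays, by Pearson r after subtracting the mean of each experiment and among 8279 genes, were GADD45A (0.876), CXCL8 (0.861), ANKRD11 (0.822), CITED2 (0.811) and PMAIP1 (0.802). Their values at 60 min against 0 min ran from 0.17 for PMAIP1 to 0.54 for CXCL8, and high minus low leucine at 120 min from -0.61 for PMAIP1 to -0.23 for ANKRD11. These values follow from choosing the genes on the same arrays and are no test. For the mean of the other 6 genes, among 8274, the most alike were RBFA (0.824), RPL41 (0.802), ZNF609 (0.794), RASL11B (0.744) and USE1 (0.734). These ranks describe arrays that share their conditions.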

How the data were processed

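The deposited values were linear intensity per probe set in arbitrary units, as the authors gave them. The steps of summarising and scaling were not given in the sources used here. Of 22215 probe sets 19065 carried 1 symbol, 1043 several and 2107 none. Symbols come from the platform annotation, which can be old, and were updated through Entrez identifiers. Before log2 and quantile normalization 165.2 units were added, the 10th percentile of the arrays (median), which understates changes, most of all those of dim probe sets. Probe sets at or above the 40th percentile of the mean were kept. limma 3.58.1 (R 4.3.3, trended variance, two-sided, Benjamini-Hochberg) was fitted over all 20 arrays without and with the experiment as a block (10 and 9 residual degrees of freedom), and tested on simulated data. The labels name the experiments, and the second minus first differences of the 10 groups correlated at 0.808 to 0.928 over 45 pairs of groups, so the numbers pair the arrays. The number of arrays limits the precision.

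The members and gene lists were chosen with earlier results of these data known, so they give no independent evidence of direction. Text genes were all probe sets of the members, up to 4 genes per list with the smallest blocked p for leucine at 480 min and for 480 against 0 min, and the 5 most alike genes. The likeness profile was planned over 9 members and holds the 6 that were read. Alternatives were the scaling, pseudocount, filter, variance trend, array weights, 1 probe set per gene, averaged probe sets (added later), the block, no 0 min arrays, and leaving out each array.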

Additional observations from a re-analysis of the deposited data

How the results depend on the processing

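The experiment block decided the members' calls. With the replicate block the count called rose from 0 to 2 for leucine at 480 min, for 480 against 0 min averaged over leucine, and for that change in high leucine; other leucine comparisons gained none. Median centring without the block gave 1 for the last of these. With the block, the 2 calls for leucine at 480 min became 1 on values as deposited, with median centring, with 1 probe set per gene and with array weights. They became 3, with NOLC1 211951_at, with the 60th percentile filter and without the 0 min arrays, and were 0 to 3 without 1 array. Those for the change in high leucine became 1 as deposited, with median centring, 1 probe set per gene and array weights, and were 0 to 2 without 1 array. Those for 480 against 0 min on average became 1 as deposited, with median centring, no filter, 1 probe set per gene, no variance trend or averaged probe sets, 0 with array weights, and were 0 to 2 without 1 array. Counts of 0 became 1 for leucine averaged over time (60th percentile filter, no variance trend, averaged probe sets, or in 1 of 20 fits without 1 array), for 60 against 0 min (median centring, or in 3 of 20 fits without 1 array) and for the change from 0 to 120 min between experiments (without the second array of high leucine at 120 min).

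Between experiments the 3 calls became 8 on values as deposited and 0 with 1 probe set per gene. NPM1 221923_s_at turned to 0.06 as deposited, and with probe sets averaged NPM1 200063_s_at turned to -0.07 and NOLC1 211951_at to -0.14, which is the value of the averaged gene. No scaling moved the median of all probe sets by more than 0.08, but single members moved more. As deposited, NPM1 200063_s_at was called between experiments at 0.18 (limma adjusted p = 1.6e-05). The NPM1 221691_x_at change in high leucine went from -0.2 to -0.1. Of the fits without 1 array, POLR3K at 480 min was called in 17 of 20 and NPM1 221691_x_at in 16 of 20. Most of these fits leave out an array of another time, which does not enter the difference. Without an array of 480 min the call was lost in 3 fits for POLR3K and in every such fit for NPM1 221691_x_at. POLR3K was called under 11 of 12 other settings (not without the block). NPM1 221691_x_at was called under 7 of 11 (not as deposited, with median centring, with array weights or without the block). These 7 include the averaged probe sets, whose value is that of the averaged gene.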
